A study of Mus musculus with 12 samples.

Results

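Mest, Sfrp5, Fgf13, Bmp3 and Fam13a are 5 genes linked to the expansion of fat tissue or to Wnt and bone morphogenetic protein (BMP) signalling. They were chosen by name with their values in these samples already known, so their levels and differences below are a description, with no test. On the bead array they were found by the gene symbol in the deposited probe table: 9 of 25697 probes carried 1 of the 5 symbols, and 8 of these passed the detection filter (detection p-value under 0.05 on at least 3 of 12 arrays). Where several probes of a gene were kept, the brightest by mean stood for it. This gave 11787 genes in all, and the 5 probes described first below were detected on 12 of 12 arrays.

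RNA came from the epididymal fat of male C57BL/6J mice aged 20 weeks, either wild type or with a global knockout of Siah2, a ubiquitin ligase. Both genotypes were put at 4 weeks of age on a diet with 10% fat (low fat) or 45% fat (high fat). Each of the 4 groups gave 3 RNA pools: 10 animals in pools of 3 to 4, or, for the high fat knockout, 8 animals in pools of 2 to 3. The labels do not tie pool sizes to single pools, and a pool hides the spread among the mice that went into it.

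Fat depots grow by enlarging adipocytes and by forming new ones from progenitors. Wnt ligands act through Frizzled and Lrp receptors to stabilise beta-catenin and hold progenitors back from becoming adipocytes, and secreted Frizzled-related proteins such as Sfrp5 bind Wnt ligands outside the cell. BMPs act through receptor kinases and Smad proteins on the commitment of progenitors, with Bmp3 an atypical member that opposes other BMPs. Mest (also called Peg1) is an imprinted gene expressed from the paternal allele, encodes an endoplasmic reticulum protein of the alpha/beta hydrolase fold and is known in mice as a marker of fat mass expansion. Fgf13 belongs to the fibroblast growth factor homologous factors, which stay inside the cell and bind voltage-gated sodium channels and microtubules. Fam13a lies at a human locus associated with body fat distribution.

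The members lie on chromosomes 6 (Mest and Fam13a), 19 (Sfrp5), X (Fgf13) and 5 (Bmp3). RefSeq promoter windows of build GRCm38.p6 were available for 4 of the 5, and the 250 bases before an annotated start are shown for the imprinted gene, the Wnt antagonist and the gene that was lower on high fat. Capitals mark matches, on either strand, to 4 motifs: AGGTCA (a nuclear receptor recognition core), CTTTGA or CTTTGT (the core bound by Tcf and Lef factors), GGCGCC and TATAAA.
Mest, chr6:30737800-30738049, plus strand: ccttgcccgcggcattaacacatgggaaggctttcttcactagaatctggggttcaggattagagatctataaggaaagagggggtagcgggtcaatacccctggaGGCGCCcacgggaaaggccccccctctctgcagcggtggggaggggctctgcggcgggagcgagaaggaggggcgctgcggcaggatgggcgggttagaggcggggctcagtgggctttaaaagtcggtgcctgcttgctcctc
Sfrp5, chr19:42202253-42202502, minus strand: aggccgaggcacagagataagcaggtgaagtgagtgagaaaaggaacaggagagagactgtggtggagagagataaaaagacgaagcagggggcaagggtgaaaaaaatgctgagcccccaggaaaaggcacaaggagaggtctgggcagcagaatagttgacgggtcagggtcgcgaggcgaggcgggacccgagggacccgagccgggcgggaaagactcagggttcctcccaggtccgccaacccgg
Fam13a, chr6:59024503-59024752, minus strand: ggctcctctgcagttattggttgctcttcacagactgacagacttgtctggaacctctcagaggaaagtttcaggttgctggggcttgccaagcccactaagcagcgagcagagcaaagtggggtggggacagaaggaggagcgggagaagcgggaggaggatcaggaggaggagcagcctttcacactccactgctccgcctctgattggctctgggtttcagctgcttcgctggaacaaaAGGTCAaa
The Fam13a window held AGGTCA beginning 8 bases before the start, a motif found in 14.0% of 32851 RefSeq windows of this length. The Mest window held GGCGCC beginning 144 bases before the start (9.59% of windows), and the Sfrp5 window held none of the 4 motifs. The Mest and Sfrp5 windows held 14 and 13 CpG dinucleotides, against a median of 6 over all windows, and that of Fam13a held 5. RefSeq gives Mest 3 windows: another overlaps the one shown almost entirely, and the most upstream holds 7 CpG dinucleotides and none of the 4 motifs. Of the 4 Fgf13 windows, 1 held CTTTGT, beginning 113 bases before its start; CTTTGA or CTTTGT was found in 27.6% of all windows and TATAAA in 12.4%. These matches describe the letters only.

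Of the miRNAs RefSeq places inside these genes, a mature form of one in Mest and of one in Fgf13 are given with the seed, bases 2 to 8, in capitals. They share no seed, and no level of either is reported here.
mmu-miR-335-5p, within Mest, chr6:30741314-30741336, plus strand: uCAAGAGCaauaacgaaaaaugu
mmu-miR-504-5p, within Fgf13, chrX:59097705-59097726, minus strand: aGACCCUGgucugcacucuauc

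Between 13389 and 15037 probes were detected per array, and the arrays of a group correlated at 0.943 to 0.985 over the kept genes. The Siah2 probe read 78.6 to 121 in the 6 wild type pools and 45.0 to 68.2 in 5 of the 6 knockout pools. The library labelled knockout on low fat, replicate 1, read 102 and so went against its label. It also held the highest summed intensity of 10 skeletal muscle markers, 12291 against 1394 to 8096 in the others, and the differences of the 5 genes and the counts of listed genes that rest on the low fat knockout are given with and without it. The 10 adipocyte markers summed to 135347 to 185599, with ranges that overlapped between all 4 groups. Their mean log2 levels, in which bright markers weigh less, did not overlap between the genotypes on low fat. They were 12.07 to 12.24 in wild type and 12.32 to 12.73 in knockout. Of these markers, Lpl and Cfd had lower means in the low fat knockout and the others higher ones. The 10 kept of 15 epididymis markers summed to 90779 to 133902 in wild type on low fat and 383 to 763 on high fat. In the knockout they were at 66644, 6545 and 65940 in the low fat pools and at 156, 50471 and 83 in the high fat pools. The 8 kept of 9 seminal vesicle markers summed to 60377 to 238635 in wild type on low fat and to 18 to 6862 in all other groups. The 8 macrophage markers summed to 4951 to 11023 over both low fat groups and 20447 to 41271 over both high fat groups.

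Mest, the imprinted marker of fat expansion, was at its highest on high fat in both genotypes. Its representing probe, ILMN_2846904, gave normalized intensities of 2400.1, 3092 and 3293 in the wild type low fat pools and 10789, 12461 and 10039 in the wild type high fat pools. In the knockout it gave 2938, 6977 and 7241 on low fat and 10452, 12169 and 14362 on high fat. Every high fat pool lay above every low fat pool, within and across genotypes. Pool 1 of the low fat knockout, the library that went against its label, sat within the wild type low fat range, while pools 2 and 3 sat between that range and the high fat pools.

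Group means of Mest were 2928 ± 468 (SD, n = 3 in each group) in wild type on low fat, 5719 ± 2412 in knockout on low fat, 11096 ± 1240 in the high fat wild type and 12328 ± 1960 in knockout on high fat. On the log2(intensity + 50) scale, high fat exceeded low fat by 1.91 (SE 0.30) in wild type and by 1.20 (SE 0.30) in knockout. The knockout exceeded wild type by 0.86 (SE 0.30) on low fat and by 0.14 (SE 0.30) on high fat, where the pools of the genotypes overlapped. Without the library labelled knockout on low fat, replicate 1, the low fat difference between genotypes was 1.28 and the diet difference in knockout was 0.78. With the mean log2 level of the epididymis markers as a covariate, the diet differences were 1.685 in wild type and 1.10 in knockout. The low fat genotype difference was then 0.76.

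The other Mest probes carried the diet pattern, but not the same genotype difference. ILMN_2642417 had means of 1828 ± 279, 6648 ± 1489, 2459.6 ± 1164 and 5432 ± 444 in low and high fat wild type and then in low and high fat knockout. ILMN_2642418 had means of 707 ± 166, 3091 ± 835, 1049 ± 539 and 2254 ± 151 in the same order. The diet differences of these 2 probes were 1.82 and 2.04 in wild type and 1.26 and 1.22 in knockout, close to those of the representing probe. For knockout against wild type on high fat the probes differed in sign: 0.14 for the representing probe, and -0.27 and -0.41 for the others, each with an SE of 0.30 to 0.37. On low fat the genotype difference was 0.30 and 0.40 for these probes against 0.86. In pool 1 of the low fat knockout they read 1179 and 435, below all 3 wild type low fat pools (1648 to 2149 and 525 to 851).

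**Figure D1:**
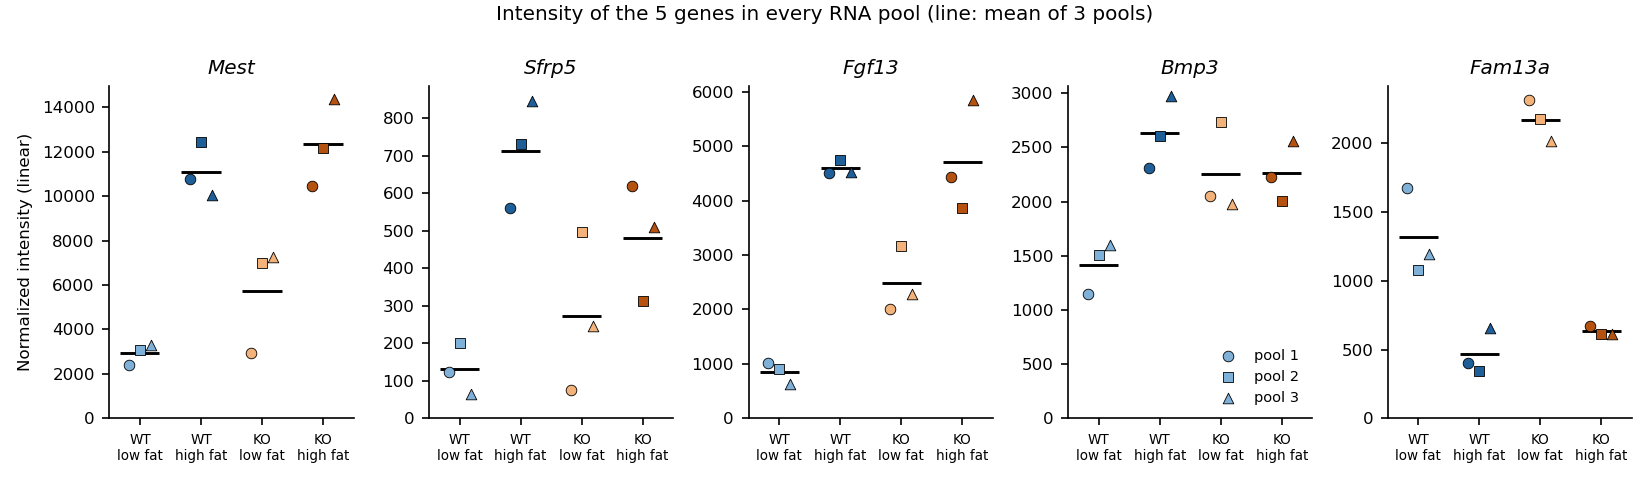
Normalized intensity (linear axis from 0) of the representing probe of each of the 5 genes in the 12 RNA pools, by genotype (WT, wild type; KO, Siah2 knockout) and diet; each marker is a pool and each line the mean of 3 pools. Mest, Sfrp5, Fgf13 and Bmp3 were higher and Fam13a lower in all 3 wild type high fat pools than in all 3 wild type low fat pools.

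Sfrp5, the secreted Wnt antagonist, was low in wild type on low fat and varied most among the pools of the knockout. Its single probe, ILMN_1232779, gave 124, 202 and 65.5 in the wild type low fat pools and 559.8, 730.02 and 847 in the wild type high fat pools. In the knockout it gave 74.2, 496 and 247 on low fat and 619, 314 and 511 on high fat. The wild type groups did not overlap, whereas the low fat knockout spanned from the wild type low fat range to within the high fat knockout range.

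From low to high, the means of Sfrp5 were ordered as wild type on low fat (130.3 ± 68.3), knockout on low fat (272 ± 212), knockout on high fat (481 ± 155) and wild type on high fat (712 ± 144), with overlapping pools between each pair of neighbours in that order. The log2 difference between diets was 2.13 (SE 0.47) in wild type and 0.92 (SE 0.47) in knockout. Between genotypes it was 0.66 (SE 0.47) on low fat and -0.55 (SE 0.47) on high fat. Without the library labelled knockout on low fat, replicate 1, the low fat genotype difference was 1.23 and the knockout diet difference was 0.36. Without low fat knockout pool 2 they were 0.16 and 1.42.

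The epididymis markers also differed among the knockout pools. The low fat knockout pool with the highest Sfrp5, pool 2 at 496, had the lowest epididymis sum of its group, 6545. Pools 1 and 3 of that group had near-equal sums, 66644 and 65940, but Sfrp5 at 74.2 and 247. The high fat knockout pool with the lowest Sfrp5, pool 2 at 314, had the highest epididymis sum of its group, 50471. Whether Sfrp5 follows these markers was not tested. With the mean log2 level of the epididymis markers as a covariate, the wild type diet difference of Sfrp5 was 0.93 in place of 2.13 and the low fat genotype difference 0.16 in place of 0.66. That level was 11.9 to 13.2 in wild type on low fat and 6.20 to 6.62 on high fat. In the low fat knockout it was 8.53 to 11.3. With no overlap in either comparison, the fit separates the covariate poorly from diet or genotype, also for the other genes. In bulk tissue, fewer cells of a type and less RNA per cell cannot be told apart.

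Bmp3, the BMP family member that opposes other BMPs, was lowest in wild type on low fat and at overlapping values in the other 3 groups. Its probe, ILMN_1235433, gave 1143, 1508 and 1599 in wild type on low fat and 2310.2, 2608 and 2974 in wild type on high fat. In the knockout it gave 2052, 2734 and 1979 on low fat and 2222, 2007 and 2561 on high fat. Every pool of the 3 other groups exceeded every wild type low fat pool, and those 3 groups overlapped one another.

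The means of Bmp3 were 1417 ± 241 in wild type on low fat, 2255 ± 417 in knockout on low fat, 2264 ± 279 in knockout on high fat and 2631 ± 333 in wild type on high fat. The diet difference was 0.88 (SE 0.17) on the log2 scale in wild type and 0.01 (SE 0.17) in knockout. The knockout exceeded wild type by 0.65 (SE 0.17) on low fat and differed by -0.21 (SE 0.17) on high fat. Without the library labelled knockout on low fat, replicate 1, the low fat genotype difference was 0.71 and the knockout diet difference -0.05. With the epididymis markers as a covariate the wild type diet difference was 0.26, the knockout one -0.26 and the low fat genotype difference 0.39.

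Fgf13, the intracellular FGF homologous factor, had the largest wild type diet difference of the 5 genes. Probe ILMN_2745480 gave 1020.2, 901 and 633 in wild type on low fat and 4498, 4746 and 4524 in wild type on high fat. In the knockout it gave 2005, 3168 and 2291 on low fat and 4440.0, 3867 and 5844 on high fat. All 3 low fat knockout pools, pool 1 included, lay above every wild type low fat pool and below every high fat pool. The high fat groups overlapped, and the wild type high fat pools were the closest to each other.

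Means of Fgf13 were 851 ± 199, 2488 ± 606, 4590 ± 136 and 4717 ± 1017 in low fat wild type, low fat knockout, high fat wild type and high fat knockout. The diet difference was 2.39 (SE 0.21) in wild type and 0.91 (SE 0.21) in knockout, on the log2 scale. The knockout exceeded wild type by 1.49 (SE 0.21) on low fat and by 0.02 (SE 0.21) on high fat. Without the library labelled knockout on low fat, replicate 1, these values were 0.78 for diet in knockout and 1.63 for genotype on low fat. With the epididymis markers as a covariate the wild type diet difference was 1.87, the knockout one 0.69 and the low fat genotype difference 1.27.

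A second Fgf13 probe had the same order of groups. ILMN_1257196 read 43.7 ± 22.3 in wild type on low fat, 198 ± 95.6 in knockout on low fat, 471 ± 179 in the high fat wild type and 555 ± 176 in knockout on high fat. Its diet differences were 2.44 in wild type and 1.31 in knockout, and its genotype differences 1.37 on low fat and 0.24 on high fat. The remaining probe, ILMN_2707356, was detected on 1 array and read -1.91 to 22.8 over the 12 pools. All values lay below 27.9, an intensity floor set from the share of probes detected and not itself the rule of detection. The probe was not used.

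**Figure D2:**
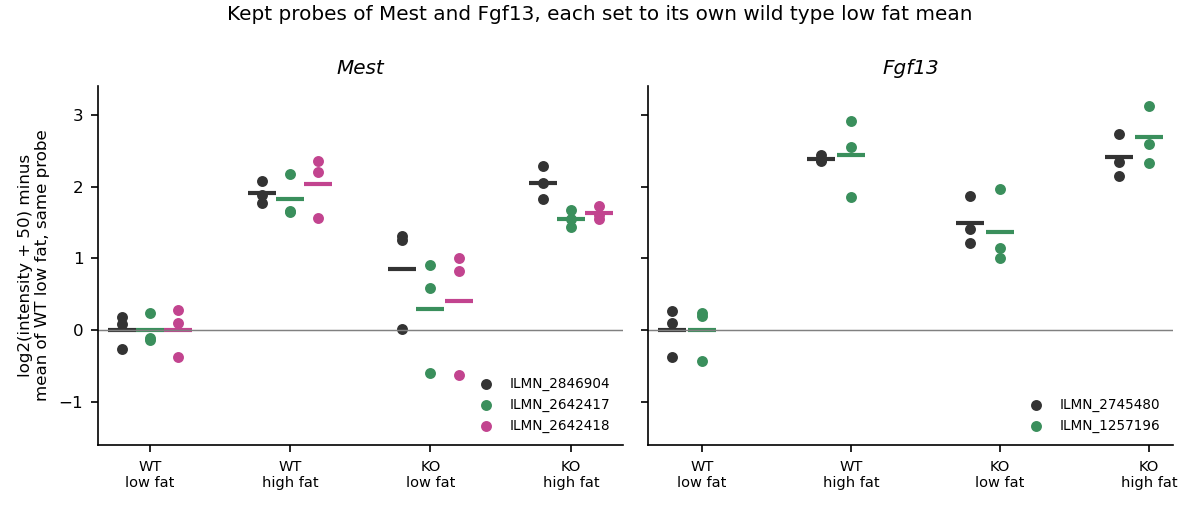
log2(intensity + 50) of the 3 kept probes of Mest and the 2 kept probes of Fgf13 in every pool, each minus the wild type low fat mean of the same probe; dots are pools and dashes group means (WT, wild type; KO, Siah2 knockout). The wild type diet differences of the probes of a gene lay close together (1.82 to 2.04 for Mest, 2.39 and 2.44 for Fgf13), and the Mest probes spread apart in the knockout groups.

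Fam13a, the gene at the body fat distribution locus, ran opposite to the other 4 with diet. Its probe, ILMN_1224427, gave 1672, 1079.7 and 1195 in wild type on low fat and 401, 342 and 653 in wild type on high fat. In the knockout it gave 2317, 2177 and 2018 on low fat and 671, 610.3 and 614 on high fat. Each low fat pool exceeded each high fat pool, and each low fat knockout pool exceeded each wild type low fat pool.

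Means of Fam13a descended from 2171 ± 150 in knockout on low fat to 1315 ± 314 in wild type on low fat, 632 ± 34.0 in knockout on high fat and 465 ± 165 in wild type on high fat; only the high fat groups overlapped. High fat was lower than low fat by a log2 difference of -1.43 (SE 0.21) in wild type and -1.70 (SE 0.21) in knockout. The knockout exceeded wild type by 0.72 (SE 0.21) on low fat and by 0.45 (SE 0.21) on high fat. Of the 5 genes it moved least when the library labelled knockout on low fat, replicate 1, was left out, to 0.68 for genotype on low fat and -1.66 for diet in knockout. With the epididymis markers as a covariate the diet differences were -1.54 and -1.75.

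Across the 5 genes, the wild type diet groups did not overlap for 5 of 5, 4 higher and 1 lower on high fat. Over all 11787 genes, 51.5% did not overlap in this comparison, 29.2% higher and 22.3% lower. In the knockout, Mest and Fgf13 were higher without overlap and Fam13a lower, 3 of 5, against 22.1% of all genes. On low fat Fgf13, Bmp3 and Fam13a were higher in all knockout than in all wild type pools, 3 of 5, against 33% of all genes, 19.1% of them higher. On high fat 0 of 5 separated the genotypes, against 18.1% of all genes. The members were chosen with these values known, so nothing is read from those shares.

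The diet difference in knockout minus that in wild type was -0.71 (SE 0.42) for Mest, -1.21 (SE 0.67) for Sfrp5, -1.47 (SE 0.30) for Fgf13, -0.86 (SE 0.24) for Bmp3 and -0.27 (SE 0.30) for Fam13a. Leaving out the library labelled knockout on low fat, replicate 1, gave -1.13, -1.78, -1.61, -0.92 and -0.23. With the epididymis markers as a covariate they were -0.59, -0.54, -1.19, -0.52 and -0.21. For Fgf13 and Bmp3 this came with a higher low fat level in the knockout and little difference on high fat. The diet comparisons share the groups with the genotype comparisons, so these values are not independent of one another.

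**Figure D3:**
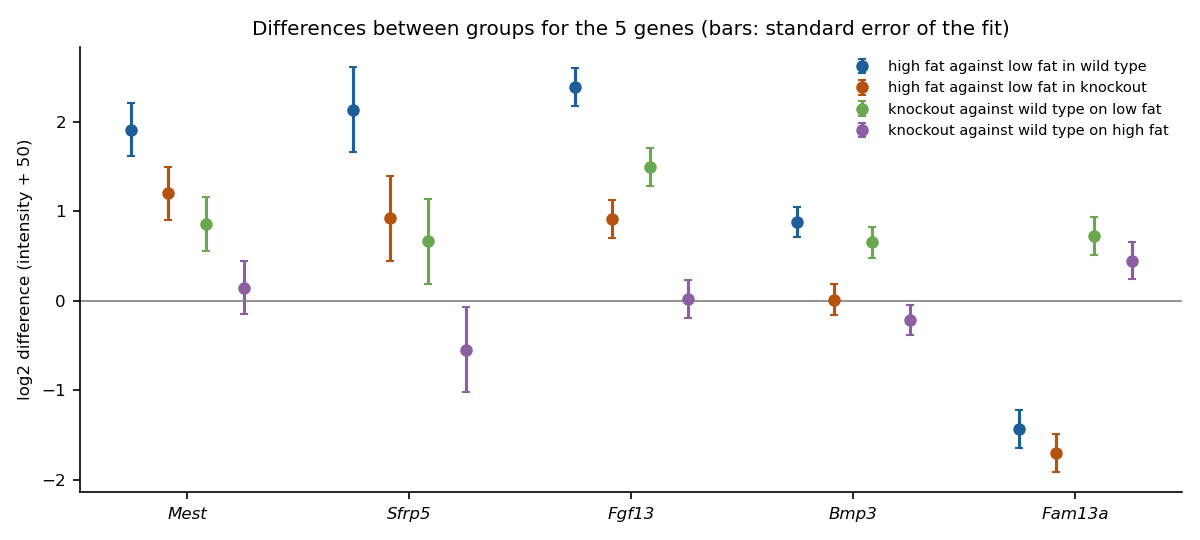
log2 differences of the representing probe of each gene in 4 comparisons; points are differences of group means of 3 pools on the log2(intensity + 50) scale and bars the standard error of the fit over 12 arrays. Genotype differences on high fat lay between -0.55 and 0.45, and diet differences in wild type between -1.43 and 2.39.

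For Mest and Sfrp5, the pools of the low fat knockout were farther apart than those of any other group. Pool 1 of the low fat knockout deviated from the group mean by -0.84 for Mest, -1.13 for Sfrp5, -0.28 for Fgf13, -0.12 for Bmp3 and 0.09 for Fam13a on the log2 scale. Its pool 2 was above the group mean for all 5, by 1.01 for Sfrp5, 0.39 for Mest, 0.37 for Fgf13, 0.29 for Bmp3 and 0.01 for Fam13a. In wild type on high fat, Mest, Fgf13 and Bmp3 deviated by at most 0.18 in either direction, and Fam13a by -0.15, -0.35 and 0.50. In the high fat knockout, pool 2, with the high epididymis sum, had the lowest Sfrp5, Fgf13 and Bmp3 of its group. It also had the lowest Fam13a, by little (610.3 against 671 and 614). Without that pool, the genotype difference on high fat was -0.30 for Sfrp5, 0.15 for Fgf13 and -0.13 for Bmp3.

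**Figure D4:**
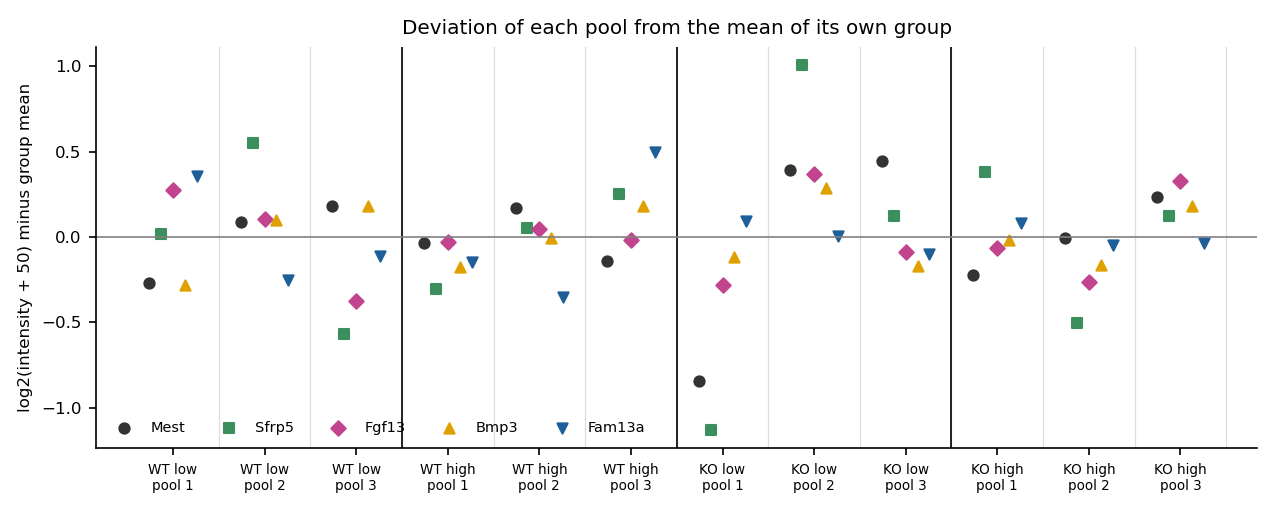
Deviation of log2(intensity + 50) from the mean of the pool's own group for the 5 genes, in the 12 pools (WT, wild type; KO, Siah2 knockout; low and high, diet). The widest deviations were in the low fat knockout, from -1.13 to 1.01, both for Sfrp5.

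Likeness was measured as the root mean square difference between log2 profiles over the 12 samples, each centred on its own mean, among all genes kept. For Mest the nearest genes were listed on the array as 2310016C08Rik (0.18; RefSeq symbol Hilpda, a lipid droplet protein), 9030205A07Rik (0.22; Unc79) and 1100001G20Rik (0.24; Wfdc21). The nearest to Sfrp5 were Syp (0.31), the synaptic vesicle protein synaptophysin, Gng2 (0.35) and Tmem106a (0.36). Fgf13 had Fabp5 (0.23), a fatty acid binding protein, Krt79 (0.24), a keratin, and Paqr9 (0.24). Bmp3 had Hist1h4i (0.12), a histone gene, Nhlrc3 (0.14) and Plekha2 (0.14). Fam13a had Pck1 (0.28), the enzyme of glyceroneogenesis in fat, LOC100043671 (0.29) and 2010308M01Rik (0.31). The median over all genes was 0.904, 0.976, 1.003, 0.412 and 0.910 for the 5 in that order. When the group means were removed, Syp alone of these 15 genes stayed among the 3 nearest to its member, at 0.25.

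Around the 5 genes, 223 genes of Wnt, BMP and TGF-beta, FGF and fat expansion pathways were listed in 12 lists, and 128 passed the detection filter and were tested with limma over all 11787 genes (threshold adjusted p 0.05). For high fat against low fat in wild type 45 of the 128 changed, 28 higher and 17 lower. That was 35.2% of the listed genes, and 39.5% of all genes tested changed in this comparison, 22.7% higher and 16.8% lower. The median log2 difference was 0.03 over the listed genes and 0.06 over all genes. After cyclic loess normalization between arrays the split over all genes was 2171 higher and 2522 lower in place of 2678 and 1977.

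Among Wnt pathway genes, ligands and beta-catenin targets held both falls and rises on high fat in wild type. Of 7 ligands tested, 4 fell and 1 rose: Wnt7b, Wnt4 and Wnt6 were at least 3.15-fold, 1.43-fold and 1.66-fold lower, since their high fat means lay below the detection floor, and Wnt5a, a ligand of non-canonical signalling, rose by 0.65 (SE 0.15, limma adjusted p = 0.00667). Wnt7b, Wnt4 and Wnt6 were detected on 5, 5 and 4 arrays. Outside low fat wild type, only low fat knockout pool 1 read above the floor, at 68.8 for Wnt7b and 34.8 for Wnt4. These genes thus passed the detection filter mainly through the group where they were high, and their place in the count rests on that. Of 11 genes of the beta-catenin pathway and its targets, 4 fell and 2 rose. Axin2, a feedback target of beta-catenin, fell from 780.2 ± 108 to 320.03 ± 48.3 (log2 difference -1.17, SE 0.18, limma adjusted p = 0.000876). Tcf7, a partner of beta-catenin on DNA, was at least 16.9-fold lower, and Ccnd1, cyclin D1, fell by 0.73. Ccn5 (Wisp2 on the array), a secreted protein of mesenchymal progenitors, rose from 254 ± 156 to 2069 ± 617 (log2 difference 2.89, SE 0.44, limma adjusted p = 0.000823).

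Of 10 secreted Wnt antagonists and other inhibitors besides Sfrp5, 2 rose and 0 fell. Sfrp4, a relative of Sfrp5, had a mean of 28.9 ± 2.51 in wild type on low fat and read 349.9, 110.1 and 113 in the high fat pools (log2 difference 1.47, SE 0.29, limma adjusted p = 0.00295). In the knockout Sfrp4 read 54.7, 53.4 and 30.6 on low fat and 135, 136 and 154 on high fat. Dact1, an intracellular modulator of Wnt signalling, was at least 1.49-fold higher. It was detected on 5 arrays and read above the floor only in high fat wild type pools 1 and 2 (43.4 and 62) and low fat knockout pool 2 (32.2). Its passing of the filter thus rests largely on the group where it was high. Of 16 receptors and R-spondins, Lrp5, a Wnt co-receptor, rose by 0.69, Fzd6, a Frizzled receptor, fell by 1.06 and Rspo3, a secreted enhancer of Wnt signalling, was at least 7.99-fold lower.

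Among BMP and TGF-beta genes, 5 of 12 ligands rose on high fat in wild type and 1 fell. Gdf3, a ligand of the activin and nodal branch, was at 6.1, -0.5 and -0.3 on low fat and 209.5, 183 and 119 on high fat, at least 5.95-fold higher (limma adjusted p = 1.594e-05). Gdf3 was detected on 4 arrays and could not have passed the detection filter without the high fat wild type pools. Its p-value is therefore no independent support for the rise. Tgfb1 rose by 1.12 (SE 0.18) and Gdf15, a stress-induced hormone, by 0.85 (SE 0.28). Bmp7 was at least 3.50-fold lower. Of 17 receptors and Smads, 4 rose and 1 fell: Eng, Acvrl1 and Tgfbr2, endothelial or widely expressed TGF-beta receptors, rose by 1.08, 0.88 and 0.85, and Bmpr1b, a BMP receptor, fell by 3.63 from 996 ± 322 to a mean near the floor. Of 10 BMP antagonists besides Bmp3, 2 rose and 0 fell, with Fstl1 up by 1.13 and Crim1 by 0.75. Of 8 BMP target genes, Hey1 rose by 1.05 and Id4 fell by 0.85.

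Beside Fgf13, 5 FGF homologous factor and sodium channel genes were tested and 2 fell: Fgf12, another homologous factor, was at least 1.88-fold lower and Scn2b, a channel subunit, had means of 28.0 on low fat and 4.48 on high fat, the first barely above the floor, so that no fold is given. Fgf12 and Scn2b were detected on 5 and 3 arrays and passed the filter mainly through low fat wild type pools, where they were high. Of 12 FGF ligands, receptors and feedback genes, 3 rose and 1 fell. Klb, the co-receptor for Fgf21, rose from 438 ± 71.9 to 926 ± 25.2 (log2 difference 1.01, SE 0.20, limma adjusted p = 0.00303) and Fgf21 by 0.63. Fgfr1 was at least 1.76-fold higher and Fgfr2 at least 2.31-fold lower.

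Of 7 other fat expansion genes 4 rose and 0 fell in wild type. Lep, the adipocyte hormone leptin, rose from 14645 ± 491 to 39181 ± 651 (log2 difference 1.42, SE 0.18, limma adjusted p = 0.00028), and its high fat values lay near the highest value in the table, 41361. Npr3, a natriuretic peptide clearance receptor, rose by 1.15, and the caveola coat genes Cavin3 (Prkcdbp on the array) and Cavin2 (Sdpr) by 0.98 and 0.51. Of 13 imprinted genes beside Mest, 3 rose (Peg3 by 1.01, Igf2r by 0.87 and Grb10 by 0.54) and Rasgrf1 fell from 1781 ± 331 to 128 ± 53.7.

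**Figure D5:**
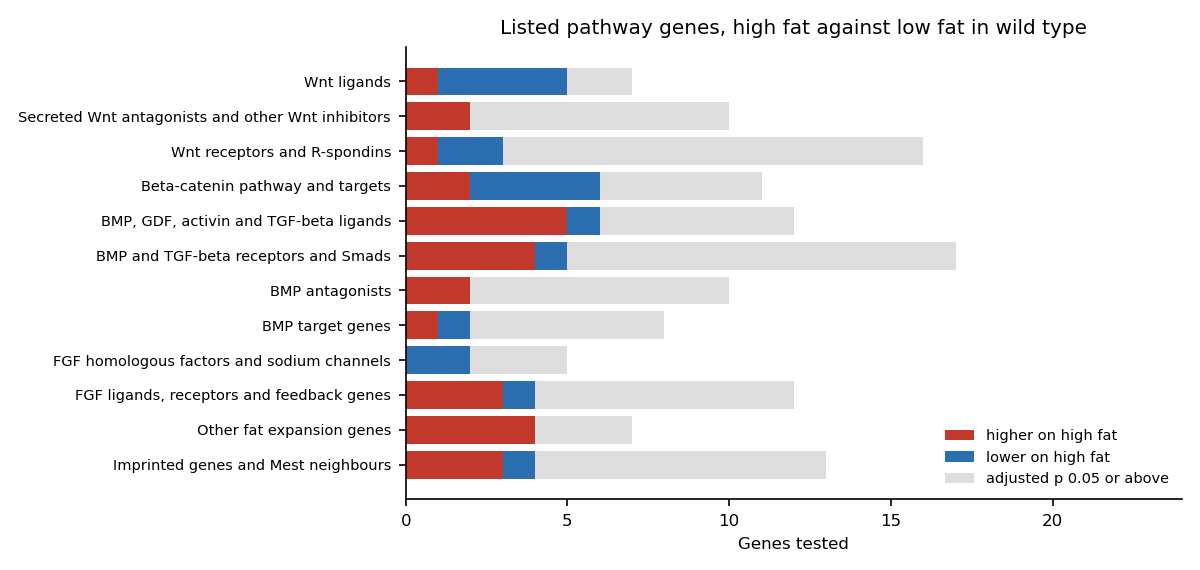
Number of genes tested in each of the 12 lists that were higher, lower or not past an adjusted p of 0.05 for high fat against low fat in wild type (limma over 11787 genes); the 5 described genes are in no list. The lists hold 5 to 17 tested genes, and 45 of 128 changed.

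RNA of the male tract differed between the same wild type groups, with epididymis sums of at least 90779 on low fat and at most 763 on high fat. Bmpr1b and Rasgrf1 in the knockout were highest in pools with high epididymis sums: among high fat knockout pools, pool 2 read 616 for Bmpr1b against 170 and 29.2, and 719 for Rasgrf1 against 74.0 and 110.4. So were Tcf7, at 150 in that pool against 42.6 and 9, and Rspo3, at 70.6 against 26.7 and 31.7. Axin2 and Fzd6 were instead highest in high fat knockout pool 1 of that group, at 566.5 and 315.6. Whether these genes follow the epididymis markers was not tested. With the epididymis mean as a covariate, 1 of the 128 genes changed with diet in wild type, Gdf3 (log2 difference 2.24, limma adjusted p = 0.0291), and 0.28% of all genes did. The differences in that fit were 2.81 (SE 0.95) for Wisp2, 1.28 (SE 0.62) for Sfrp4, 1.04 (SE 0.55) for Npr3 and 1.14 (SE 0.38) for Lep, with larger errors than without the covariate. Among genes that fell, they were -0.22 (SE 0.87) for Tcf7, -1.12 (SE 0.72) for Rspo3 and -0.78 (SE 0.37) for Axin2. Other cell type markers differed between the same groups without overlap. The 6 endothelial markers summed to 6787 to 7619 on low fat and 9587 to 11062 on high fat, and the 8 fibroblast and preadipocyte markers to 27587 to 39791 and 43326 to 44323. The 7 kept of 8 mesothelial markers summed to 8532 to 9126 on low fat and 3067 to 3435 on high fat, but did not move together. The means of the keratins Krt8, Krt18 and Krt19 fell, Krt8 from 4435 to 146. Those of Msln, Upk3b, Lrrn4 and Cldn15 rose, Cldn15 from 1011 to 1915. The part of these and of the macrophage markers in the counts was not tested.

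In the knockout, diet changed 2 of the 128 listed genes, 1.56%, where 4.35% of all genes changed. Both belong to the imprinted list: Ppp1r9a, an actin-binding scaffold, fell by 0.57 (SE 0.14, limma adjusted p = 0.0445) and Mkrn3, a ubiquitin ligase gene, by 0.50 (SE 0.12, limma adjusted p = 0.0417). Neither passed without the library labelled knockout on low fat, replicate 1 (limma adjusted p = 0.0774 and 0.121), where Igf2, an imprinted growth factor gene, fell instead (limma adjusted p = 0.0417). With the epididymis mean as a covariate neither passed (limma adjusted p = 0.0872 and 0.308). Whether these 2 responses differ from those in wild type was tested through the difference between the diet effects, which passed for 1 listed gene, Gdf3, and for 0.102% of all genes.

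On low fat, 9 of the 128 differed between knockout and wild type, 7 higher and 2 lower, 7.03% against 7.85% of all genes. Higher were Klb by 1.17 (SE 0.20, limma adjusted p = 0.0196), Bmp6, a BMP ligand, by 1.03, Npr3 by 0.94, Rgma, a BMP co-receptor, by 0.92, Lep by 0.72, Acvr1, a BMP receptor, by 0.68 and Ppp1r9a by 0.53. Lower were Fgf22, by a log2 difference of -0.84, and Wnt2, by -0.68. After cyclic loess normalization the split over all genes was 365 higher and 522 lower in place of 553 and 372. Without the library labelled knockout on low fat, replicate 1, 24 listed genes differed, 16 higher and 8 lower, 8 of them among the 9, while 13.2% of all genes differed. With the epididymis mean as a covariate in limma 0 listed genes did, and 0.0594% of all genes did. At an unadjusted p under 0.05 there were 14 of the 128, 10.9%, against 12.8% of all genes. The differences in that fit were 0.89 (SE 0.22) for Klb, 0.89 (SE 0.33) for Npr3 and 0.60 (SE 0.23) for Lep.

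On high fat the genotypes differed in 1 listed gene. Gdf3 read 12.8, 20.4 and 11.9 in the knockout pools against 209.5, 183 and 119 in wild type, at least 5.95-fold lower (limma adjusted p = 0.00123), and 0.0848% of all genes differed. None of the pools of the 2 groups overlapped for this gene, and the wild type pools were the ones above the detection floor. Gdf3 passed the detection filter only through those wild type pools, so the p-value is no independent support for the difference.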

How the data were processed

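Gene expression was measured on a 1-colour Illumina bead array, 1 RNA pool per array. The authors normalized the values in GenomeStudio, per the submitters' processing notes; the table header gives GSGX version 1.9.0. The deposited values used here are linear normalized intensities, background-subtracted and on a common distribution as the values show: column medians were 33.3 to 33.6, 22.9% of values were below 0 and the lowest was -27.5. The authors' deposited detection p-values and gene symbols came from the raw tables, whose 12 array codes are tied to no sample. Detection was therefore used only as a count over the 12 arrays. The gene symbol table was lined up row by row with the probe names through 1 raw signal column present in both (25697 of 25697 rows equal within 0.05). No signal from the 56 signal columns of these tables entered a comparison, since none is tied to a sample. No sequencing depth exists for arrays, and the number of arrays limits the precision.

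Probes with a detection p-value under 0.05 on at least 3 of 12 arrays were kept (15765 probes), the kept probe with the highest mean stood for a gene (11787 genes), and 50 was added before log2. The floor of 27.9 is the intensity rank matching the share of probes detected on the least sensitive array (52.1%). Differences came from limma 3.58.1 in R 4.3.3, with 4 group means over 12 arrays, 8 residual degrees of freedom and Benjamini-Hochberg adjustment over all genes. A fold against a group mean below the floor is given as a lower bound. It compares the mean log2 intensities of the groups, with each pool of the dimmer group that lay under the floor set to the floor. The fit was tested on simulated data. The p-values measure the spread between pools, not between single mice. Same-numbered pools did not deviate together on average (mean correlations -0.126 to -0.0808, single ones -0.811 to 0.161), so the main fit did not pair them. Male tract RNA differed among the knockout pools, so these correlations cannot exclude a shared batch.

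The 5 genes and the lists were chosen with earlier results of these data known. Named genes were the 5 with all probes and, per list and comparison, up to 4 called genes with the largest change, plus the 3 genes nearest to each of the 5. Alternatives changed the offset, the filter, the probe rule, the normalization, covariates and the pools used.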

Additional observations from a re-analysis of the deposited data

Results flagged for a closer look

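The diet difference of Gdf3, a ligand of the activin and nodal branch, differed between genotypes by a test of that difference: it was smaller in knockout than in wild type by a log2 difference of -1.68 (SE 0.21, limma adjusted p = 0.0141). The wild type pools read 6.1, -0.5 and -0.3 on low fat and 209.5, 183 and 119 on high fat, and the knockout pools read -2.5, 3.2 and -2.0 on low fat and 12.8, 20.4 and 11.9 on high fat. All 9 pools outside wild type on high fat lay below the detection floor of 27.9. Gdf3 was detected on 4 arrays, so without the wild type high fat pools it could not have passed the detection filter, and the fitted -1.68 depends on the added offset and is neither an exact size nor a bound. The gene was not tested where detection on all 12 arrays was asked for, and the test no longer passed with the epididymis covariate, without low fat wild type pool 2, high fat wild type pool 2 or high fat knockout pool 1, or without low fat knockout pool 1 and high fat knockout pool 2 together. The macrophage marker sum was 26411 to 41271 in wild type on high fat and 20447 to 27564 in knockout on high fat; its part in this result was not tested.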

How the results depend on the processing

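For the 5 genes, 540 of 560 alternative values moved by less than 1 SD between pools. No difference larger than 1 SD changed sign, but smaller ones did. Mest between genotypes on high fat was 0.14, and -0.27 and -0.41 for its other probes. Bmp3 for diet in knockout was 0.01, and -0.26 with the epididymis covariate. A move under 1 SD could be large beside the difference itself, as for Sfrp5 between genotypes on low fat (0.66, and 0.16 with that covariate). The 20 values that moved further came from the second probes of Mest and Fgf13, the epididymis covariate, and leaving out the library labelled knockout on low fat, replicate 1. With cyclic loess the wild type diet differences were 1.77 for Mest, 1.99 for Sfrp5, 2.30 for Fgf13, 0.79 for Bmp3 and -1.51 for Fam13a. The 45 listed genes changed by diet in wild type became 1 with the epididymis covariate and 36 to 52 with 1 pool left out. With detection on all 12 arrays they became 33 of 90 tested, 24 higher and 9 lower, in place of 28 higher and 17 lower of 128. For diet in knockout, 2 became 1 with an offset of 30 and with every kept probe tested, 1 higher gene that is neither of the 2 with the replicate block and with only the groups compared, and 0 with no filter, with the covariate and without pool 1 of the low fat and pool 2 of the high fat knockout together; leaving out 1 pool gave 0 to 6, the 6 without low fat knockout pool 2. For genotype on low fat, 9 became 4 with no filter, 0 with the covariate, the replicate block or only the groups compared, and 27 without those pools; leaving out 1 pool gave 0 to 24, the 24 without the library that went against its label and 0 without low fat wild type pool 2 or without low fat knockout pool 2 or 3. For genotype on high fat, 1 became 0 with detection on all 12 arrays, where Gdf3 is not tested, and with only the groups compared. For the difference between diet effects, 1 became 0 with detection on all 12 arrays, with the covariate and without those pools, and 0 to 2 with 1 pool left out, the 2 without the library that went against its label; a fit of only the groups compared cannot give it. Except where stated, the cause was not tested. Low intensity limits Gdf3, Wnt and FGF receptor genes, whose lower group lay below the floor.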
